A study of Mus musculus with 108 samples.

Results

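MicroRNA genes were examined in chromatin segmentations of mouse liver. The genes were the autosomal RefSeq genes of GRCm38.p6 (mm10) whose biotype is miRNA and whose symbol begins with Mir (Mirlet7 included), 1090 of the 37308 autosomal RefSeq genes. Of 1228 RefSeq miRNA genes on chromosomes 1 to 19 and X, 92 lay on X and 46 autosomal ones had other symbols, and neither set was counted here. The study profiled H3K4me3, H3K27me3, H3K27ac and H3K4me1 by ChIP-seq in formalin-fixed, paraffin-embedded livers of female C57BL/6 mice. SD 3m and SD 12m were mice of 3 and 12 months on standard diet, 8 in each group, and CR 12m were 9 mice of 12 months under 30% caloric restriction, which began at 3 months. No group carried a transgene or a deletion, and SD 6m was not analysed here. For every group the libraries of each mark, which did not cover every mouse, were merged and each bin of 200 bp received 1 of 8 states from ChromHMM, a model that names recurring combinations of marks.

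The states were 1 active TSS (H3K4me3 with H3K27ac), 2 flanking TSS (these marks with H3K4me1), 3 active enhancer 1 (H3K27ac with H3K4me1), 4 active enhancer 2 (moderate H3K27ac), 5 poised enhancer (H3K4me1 with little H3K27ac), 6 repressed Polycomb (H3K27me3), 7 weak H3K4me3 with hardly any H3K27me3 (called age-related by the study), and 8 quiescent (no mark). States 1 to 5, the promoter and enhancer states with poised state 5 included, are called regulatory below, a term that says nothing of activity. Where 3 values stand in a row, SD 3m comes first, SD 12m second and CR 12m last. A state is a label and not a signal, and the read depth behind it is unknown. As each group has 1 segmentation, no difference could be set against the spread between mice and no test was run. Intervals in parentheses are Wilson 95% intervals that cover counting over genes alone. Genes of a cluster are not independent, which holds for the counts of the lists below as well. Whole liver holds several cell types, and fewer cells of a type cannot be told apart from less of a mark per cell. The starts of 8 of 8 hepatocyte markers were in regulatory states in all 3 groups. Of 8 markers of other cell types 3, 3 and 2 were in regulatory states, with endothelial Pecam1 in states 2, 3 and 3, leukocyte Ptprc in states 5, 5 and 8, stromal Col1a1 in states 5, 4 and 6 and glial Gfap in states 8, 6 and 4. Pancreatic Ins2 was in states 6, 8 and 6, muscle Myod1 in states 8, 6 and 8, and neural Neurod1 and Pax6 were in state 6 throughout.

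A microRNA is cut out of a hairpin in a longer primary transcript by Drosha with Dgcr8 and then by Dicer, and the mature strand guides an Argonaute protein to messenger RNAs. Pairing depends mostly on the seed, bases 2 to 8 of the mature strand. Many microRNA genes lie in introns of other genes and are transcribed with them, and neighbours often share 1 primary transcript. Liver is known for Mir122, the most abundant microRNA of hepatocytes, which acts in lipid metabolism. The RefSeq start of a microRNA gene is the 5′ end of its hairpin, so the state given for a start is that of the hairpin and not that of the promoter of the primary transcript.

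Mature sequences from RefSeq (GRCm38.p6) were held for 923 members. Those shown here carry the results below, 5′ to 3′, with the seed in capitals. The products of the let-7 family and of the Mir99/Mir100 and Mir125 families that are clustered with it are given because loci with nearly the same product differed in state:
let-7a-5p: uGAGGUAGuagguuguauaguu
let-7b-5p: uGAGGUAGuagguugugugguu
let-7c-5p: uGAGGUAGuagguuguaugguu
let-7d-5p: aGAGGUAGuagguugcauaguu
let-7e-5p: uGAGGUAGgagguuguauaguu
let-7i-5p: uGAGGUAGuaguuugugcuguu
miR-99a-5p: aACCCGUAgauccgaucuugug
miR-99b-5p: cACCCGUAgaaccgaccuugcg
miR-100-5p: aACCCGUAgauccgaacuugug
miR-125a-5p: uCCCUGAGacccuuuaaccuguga
miR-125b-5p: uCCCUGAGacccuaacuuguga

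Products known for their abundance or role in liver are shown next, followed by products tied to other tissues or to proliferation whose loci moved between states or were held in the Polycomb state:
miR-192-5p: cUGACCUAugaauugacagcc
miR-194-5p: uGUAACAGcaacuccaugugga
miR-148a-3p: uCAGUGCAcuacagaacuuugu
miR-21a-5p: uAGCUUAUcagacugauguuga
miR-22-3p: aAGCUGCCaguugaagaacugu
miR-33-5p: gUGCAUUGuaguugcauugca
miR-30a-5p: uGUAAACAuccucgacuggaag
miR-34a-5p: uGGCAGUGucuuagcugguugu
miR-34b-5p: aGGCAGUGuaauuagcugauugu
miR-206-3p: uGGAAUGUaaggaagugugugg
miR-183-5p: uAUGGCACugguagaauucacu
miR-9-5p: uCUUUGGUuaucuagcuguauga

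The last set holds mature strands that are made in identical form by loci in different states:
miR-7a-5p: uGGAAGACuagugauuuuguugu
miR-128-3p: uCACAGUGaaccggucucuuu
miR-135a-5p: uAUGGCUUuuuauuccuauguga
miR-138-5p: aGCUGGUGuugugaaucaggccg
miR-181a-5p: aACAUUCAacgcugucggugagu
miR-219a-5p: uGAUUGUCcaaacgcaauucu
miR-365-3p: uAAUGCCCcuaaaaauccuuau

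In SD 3m, 534 of the 1090 starts were in a regulatory state (49.0%, 46.0 to 52.0) and 483 were in quiescent state 8 (44.3%, 41.4 to 47.3). Polycomb state 6 held 65 starts (5.96%) and state 7 held 8 (0.734%). Regulatory starts numbered 567 in SD 12m (52.0%, 49.1 to 55.0) and 591 in CR 12m (54.2%, 51.3 to 57.2). Starts in state 8 numbered 412 (37.8%) and 411 (37.7%), and starts in state 6 98 (8.99%) and 79 (7.25%). State 7 held 13 starts in SD 12m (1.19%) and 9 in CR 12m (0.826%), while over all autosomal bins its shares were 1.92%, 11.9% and 4.35%. Few microRNA genes thus lay in the chromatin that took up state 7 at 12 months.

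Promoter state 1 was less frequent at hairpins than at protein-coding starts, though flanking state 2 held still fewer microRNA starts (5.05%, 2.11% and 3.03%). State 1 held 5.50%, 5.78% and 4.04% of microRNA starts, compared to 30.8%, 30.3% and 26.4% of protein-coding starts. Starts in any regulatory state made up 61.8%, 61.9% and 62.2% of protein-coding genes, 42.9%, 43.0% and 43.3% of lncRNA genes and 23.9%, 24.0% and 24.1% of autosomal bins. With poised state 5 left out, states 1 to 4 held 397, 519 and 565 microRNA starts (36.4%, 47.6% and 51.8%), compared to 55.7%, 60.2% and 60.6% of protein-coding and 33.1%, 39.6% and 39.9% of lncRNA starts. On this narrower definition all 3 kinds of gene had a higher share at 12 months than in SD 3m. Enhancer states made up most of the regulatory microRNA starts, with state 3 at 15.1%, 19.8% and 24.2% and state 4 at 10.7%, 19.9% and 20.6% of starts. State 5 held 12.6%, 4.40% and 2.39% of starts. The merged H3K27ac libraries numbered 8, 7 and 9 and the H3K4me1 libraries 8, 6 and 9. Those of H3K4me3, the mark of state 1, numbered 7, 8 and 5, lowest in CR 12m as state 1 was. Their part in these values was not tested.

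**Figure D1:**
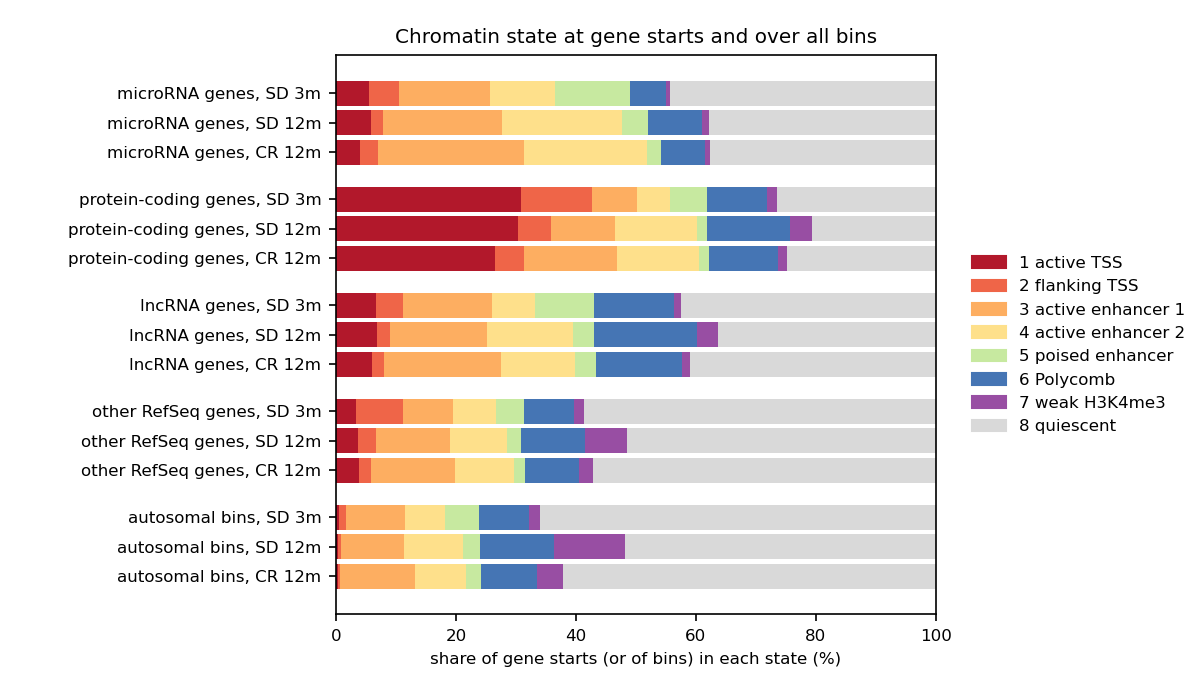
Share of gene starts in each of the 8 states (horizontal axis, %) for microRNA, protein-coding, lncRNA and other RefSeq genes and for all autosomal bins, with 1 bar for each group. The dark red band of state 1 is at most 5.78% of microRNA starts and at least 26.4% of protein-coding starts, and the grey band of state 8 is narrower for microRNA genes in SD 12m and CR 12m than in SD 3m.

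The window of 51 bins around each start, 5 kb to either side, gave much the same picture. Its most frequent state was regulatory for 519, 556 and 580 members. It was state 6 for 71, 101 and 83 members and state 8 for 491, 421 and 421. All 51 bins were in regulatory states around 386, 459 and 501 members, and no bin was in a regulatory state around 381, 420 and 408. At both ends of the scale the windows were therefore more uniform at 12 months. Along the window the share of regulatory bins varied little, from 47.9 to 50.7% in SD 3m, while it ran from 50.8 to 52.5% in SD 12m. In CR 12m it ran from 52.9 to 54.7%. State 1 taken by itself was more frequent near the hairpin, with 5.50%, 5.78% and 4.04% at the start. It held 2.20%, 2.11% and 1.56% at 5 kb upstream and 0.917%, 0.917% and 0.826% at 5 kb downstream. State 5 was also more frequent at the start in SD 3m (12.6%) than 5 kb upstream (9.45%) or downstream (10.3%). In SD 12m its values were 4.40%, 3.30% and 2.66%, while in CR 12m the start had the lowest of the 3 (2.39%, 3.03% and 2.66%).

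**Figure D2:**
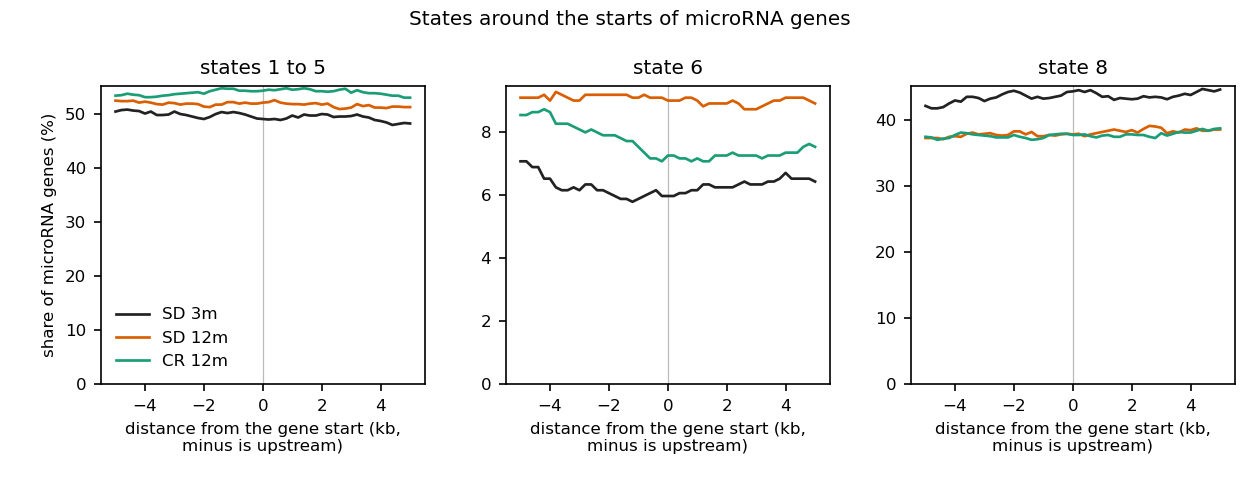
Share of the 1090 microRNA genes (vertical axis, %) with a regulatory state, state 6 or state 8 at each distance from the start (horizontal axis, kb, in the direction of transcription), 1 line per group. The regulatory share is nearly flat in every group, and the SD 3m line is the lowest for states 1 to 5 and the highest for state 8.

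Compared to SD 3m, the start of 332 members had another state in SD 12m (30.5%, 27.8 to 33.3), beside 33.2% of all 37308 genes. In CR 12m 370 members had another state (33.9%, 31.2 to 36.8), beside 33.9% of all genes. Between SD 12m and CR 12m 229 members differed (21.0%, 18.7 to 23.5), beside 25.6%. The shares were thus close to those of all genes in CR 12m and in SD 12m, and below between the 12-month groups. Both comparisons with SD 3m use the same SD 3m segmentation. All 3 groups had the same state at 643 starts (59.0%, beside 55.9% of all genes). Among them were 326 in state 8 (29.9% of the 1090, beside 22.0% of all genes) and 141 in state 3 (12.9%, beside 8.05%). State 6 held 45 of them (4.13%, beside 6.04%) and state 1 held 39 (3.58%, beside 13.2%). A further 218 of the 1090 starts had 1 and the same other state in both 12-month groups (beside 18.5%) and 37 had different ones (3.39%, beside 4.50%). The state differed in SD 12m alone at 77 starts (7.06%, beside 10.2%) and in CR 12m alone at 115 (10.6%, beside 10.9%).

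Split by direction, the shares were less close to those of all genes. Of the 556 members outside the regulatory states in SD 3m, 69 were in regulatory states in SD 12m (12.4%, 9.92 to 15.4), beside 5.68% of all genes, and 91 were in regulatory states in CR 12m (16.4%, 13.5 to 19.7), beside 7.22%. Most of these went from state 8 to state 4, 60 of 483 in SD 12m (12.4%, 9.77 to 15.7), beside 4.54% of all genes, and 79 in CR 12m (16.4%, 13.3 to 19.9), beside 5.63%. State 4 was reached from state 8 in both groups by 48 members (4.40% of the 1090, beside 1.06% of all 37308 genes). In SD 12m alone 12 members did so (1.10%, beside 0.536%) and in CR 12m alone 31 (2.84%, beside 0.919%). By contrast, 43 quiescent members were in Polycomb state 6 in SD 12m (8.90%, 6.68 to 11.8), beside 18.1% of all genes, and 27 in CR 12m (5.59%, 3.87 to 8.01), beside 12.5%. Only 9 quiescent members were in state 7 in SD 12m (1.86%), beside 7.66%, and 7 in CR 12m (1.45%), beside 2.53%.

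The opposite direction, from states 1 to 5 to states 6 to 8, was taken by 36 of 534 members in SD 12m (6.74%, 4.91 to 9.19), beside 4.9% of all genes, and by 34 in CR 12m (6.37%, 4.59 to 8.77), beside 5.55%. With state 5 counted apart, 151 of 693 members outside states 1 to 4 in SD 3m were in them in SD 12m (21.8%, beside 12.7% of all genes) and 186 in CR 12m (26.8%, beside 13.4%). Of the 397 members in states 1 to 4, 29 were outside them in SD 12m (7.30%, beside 4.16%) and 18 in CR 12m (4.53%, beside 3.8%). Poised state 5 was the least kept of the 5 regulatory states in both 12-month groups. It was left by 102 of 137 members in SD 12m, beside 79.5% of all genes, and by 121 in CR 12m, beside 82.2%. Of the 137, 52 were in state 4 in SD 12m (38.0%, beside 46.0% of all genes) and 46 in CR 12m (33.6%, beside 35.8%). State 3 was reached by 34 in SD 12m (24.8%, beside 13.2%) and by 54 in CR 12m (39.4%, beside 22.8%). State 6 was left by 12 of 65 members in SD 12m (18.5%, 10.9 to 29.6), beside 32.2% of all genes, and by 18 in CR 12m (27.7%, 18.3 to 39.6), beside 37.8%. The merged H3K27me3 libraries numbered 7, 8 and 6, and their part was not tested.

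**Figure D3:**
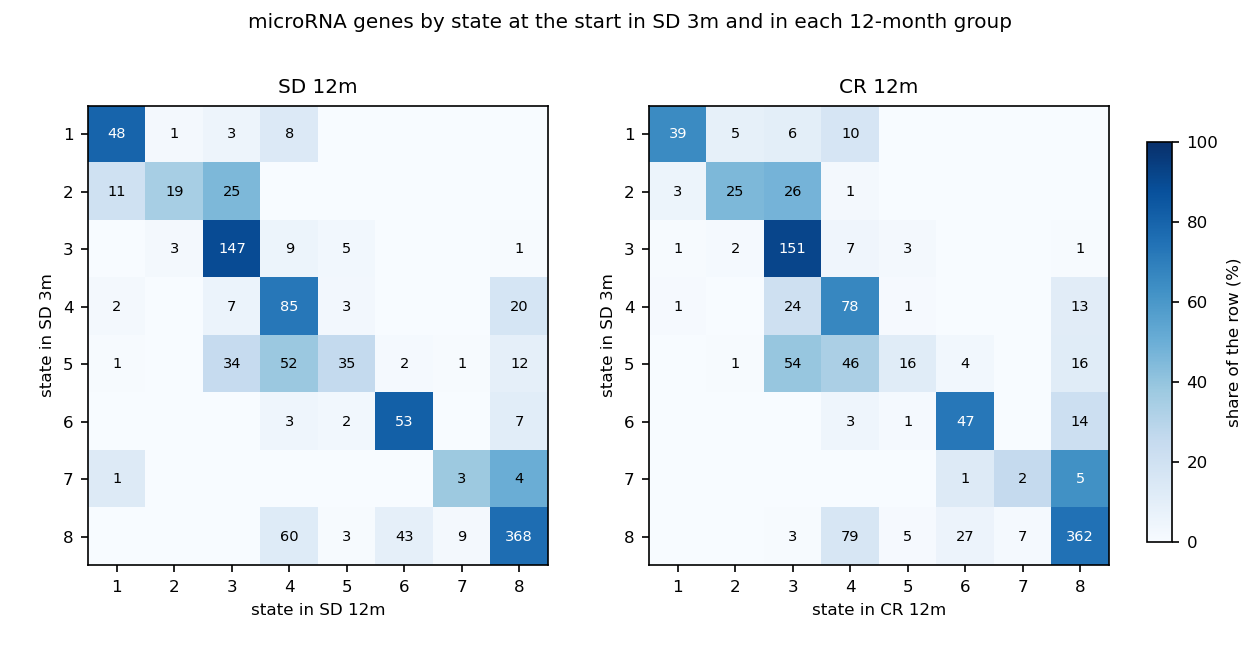
Number of microRNA genes by state at the start in SD 3m (vertical axis) and in SD 12m or CR 12m (horizontal axis), with the colour giving the share of the SD 3m state (%). Most genes lie on the diagonal, and the largest numbers away from it are 60 and 79 genes from state 8 to 4 and 52 and 54 genes from state 5 to 4 and to 3.

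The state of a microRNA gene went in part with that at the start of the gene it lay in. Of the 1090 members 745 lay within a gene of another kind on the same strand (575 in introns, 170 overlapping exons, 595 different hosts). Of the rest, 118 lay within such a gene on the other strand alone, 217 lay in none and 10 overlapped one in part. Where the host start was in state 1 or 2 in SD 3m, 267 of 356 members were in regulatory states (75.0%). Over all hosts with a start in states 1 to 5, 359 of 559 members were (64.2%) and 196 were in state 8. The share was thus lower for host starts in states 3 to 5. Where the host start was in state 8, 14 of 109 members were in regulatory states and 93 were in state 8. Where it was in Polycomb state 6, 32 of 65 were in state 6. Members that overlapped exons of their host were in regulatory states in 110 of 170 cases (64.7%) in SD 3m and those in introns in 275 of 575 (47.8%).

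Hosts also held most of the moves from state 8 to 4. Of the 193 quiescent members whose protein-coding host had a regulatory start in SD 3m, 44 were in state 4 in SD 12m (22.8%) and 62 in CR 12m (32.1%). Over all quiescent bins of protein-coding genes with such a start the shares were 10.5% and 13.4%. Of the 213 quiescent members with another host or none, 13 were in state 4 in each 12-month group (6.10%). The other quiescent bins of the members' own hosts gave closer rates. Over the 270 quiescent members with a protein-coding host, 17.4% were in state 4 in SD 12m. The share of the remaining quiescent bins of the host, averaged over these members, was 17.5%. In CR 12m the values were 24.4% and 22.8%. Averaged in this way, the hairpins went to state 4 at about the rate of the rest of their hosts. The 270 members lay in 192 hosts, so a host with several members counted several times. Sfmbt2 alone held 71 members, of which 70, 68 and 66 were in state 8. An average with each host counted once was not taken. Mir7081, in an intron of the DNA methyltransferase gene Dnmt1, had all 51 bins in state 8 in SD 3m, 37 in state 4 in SD 12m and all 51 in state 4 in CR 12m. Mir6934, in an intron of Tbc1d16, had 50 quiescent bins in SD 3m and none in either 12-month group.

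Distance to other genes, and membership of the largest clusters, went with the state as well. In SD 3m 131 of 191 members within 2 kb of the start of a gene of another kind were in regulatory states (68.6%), 269 of 500 between 2 and 20 kb (53.8%) and 134 of 399 farther away (33.6%). Grouping members less than 10 kb apart on 1 strand gave 883 loci, of which 67 held 2 or more genes, and 55 of these 67 had the same state at every start in SD 3m. Members of loci of 5 or more genes were in state 8 in 131 of 141 cases in SD 3m. The 2 largest loci held 71 and 38 genes, so this share mostly describes these 2 loci. In loci of 2 to 4 genes 46 of 133 members were in state 8 (34.6%), and of single genes 306 of 816 (37.5%). The hairpins inside Sfmbt2 on chromosome 2, a rodent-specific array in an imprinted gene, made up 71 members, of which 70, 68 and 66 were in state 8. All 61 members between Dlk1 and Dio3 on chromosome 12, a cluster expressed from the maternal chromosome mostly in embryo and brain, were in state 8 in all 3 groups. Outside these arrays 533, 564 and 586 of 958 members were in regulatory states (55.6%, 58.9% and 61.2%). The windows of members with main state 3 in SD 3m had a median GC content of 48.9% and 15.1 CpG per kb, those in state 6 46.9% and 15.7, and those in state 8 46.3% and 11.4.

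Mir122 (chr18:65248861-65248926, plus strand, in no annotated gene of another kind) was in state 4 in all 3 groups, and its 51 bins were all in regulatory states in each. Upstream lay 1 unbroken stretch of promoter state 1, at 4400 to 2000 bp before the hairpin in SD 3m and SD 12m (13 bins) and at 4400 to 2600 bp in CR 12m (10 bins). State 3 filled the 25 bins beyond, from 10000 to 5200 bp upstream, in every group. The hairpin itself lay in state 4 for 6.2 kb in SD 3m, 6.4 kb in SD 12m and 5.8 kb in CR 12m. Downstream, a quiescent stretch of 13 bins from 5800 to 8200 bp in SD 3m was in states 3 and 4 in both 12-month groups. Compared to SD 3m, 3 of its 51 bins had another state in SD 12m, while 11 did in CR 12m. The domain around the gene thus kept its layout, with promoter state 1 over 10 bins in CR 12m compared to 13 in the other groups. CR 12m had the fewest H3K4me3 libraries, and their part was not tested.

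The 34 members of the liver list, which holds microRNAs known to be abundant in hepatocytes or in liver tissue at large, were in regulatory states in 33, 33 and 34 cases, beside 49.0%, 52.0% and 54.2% of all members. All 51 bins were in regulatory states around 30, 29 and 31 of them. Mir192 and Mir194-2, neighbours on chromosome 19 that hepatocyte nuclear factors are known to control, were in flanking state 2 in every group, with 16, 10 and 11 bins of state 2 around Mir192. Mir21a, in an exon of Vmp1, and Mir22, in an exon of Mir22hg, were also in state 2 throughout. State 3 was kept in all 3 groups by Mir29a, Mir29b-1, Mir29b-2 and Mir29c, regulators of collagen genes, by Mir23b, Mir27b and Mir24-1 in Aopep, and by Mir26b, Mir101a, Mir101b and Mir107. State 4 was kept by Mir30c-1 and Mir30e in Nfyc and by Mir30c-2.

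Other members of the liver list moved between regulatory states. Mir148a, with a start in state 1 in SD 3m and SD 12m, was in state 2 in CR 12m, and the 12 Polycomb bins in its SD 3m window were absent in both 12-month groups. Mir802, which acts in glucose metabolism, was in states 3, 3 and 1. Mir30a was in states 2, 3 and 3 and Mir378a, in an intron of Ppargc1b, in states 2, 3 and 2. Mir26a-1 and Mir26a-2, in the phosphatase genes Ctdspl and Ctdsp2, were in states 5, 4 and 4. Mir23a and Mir27a were in states 5, 3 and 3, while Mir24-2 of the same cluster was in states 5, 5 and 3. Mir103-1, in the pantothenate kinase gene Pank3, was in states 4, 5 and 3, and Mir103-2, in Pank2, in states 4, 3 and 3. Mir30b was in states 5, 3 and 5 and Mir30d in states 3, 3 and 5.

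The list had 2 members with a quiescent start in some group. Mir33 (chr15:82198122-82198190, plus strand), in an intron of Srebf2, the gene of the transcription factor that drives cholesterol synthesis, was in states 8, 4 and 4. Its regulatory bins numbered 4, 41 and 51 of 51. Mir33 lowers the export of cholesterol from cells, and its host start was in state 1 in SD 3m. Mir194-1 (chr1:185313319-185313385, plus strand, on the strand opposite to another gene) was in states 4, 8 and 4, with 34, 18 and 51 regulatory bins. Its unbroken regulatory domain spanned 6.8 kb in SD 3m and 74.6 kb in CR 12m. Its copy Mir194-2, which makes the same miR-194-5p, had 51 regulatory bins in every group.

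**Figure D4:**
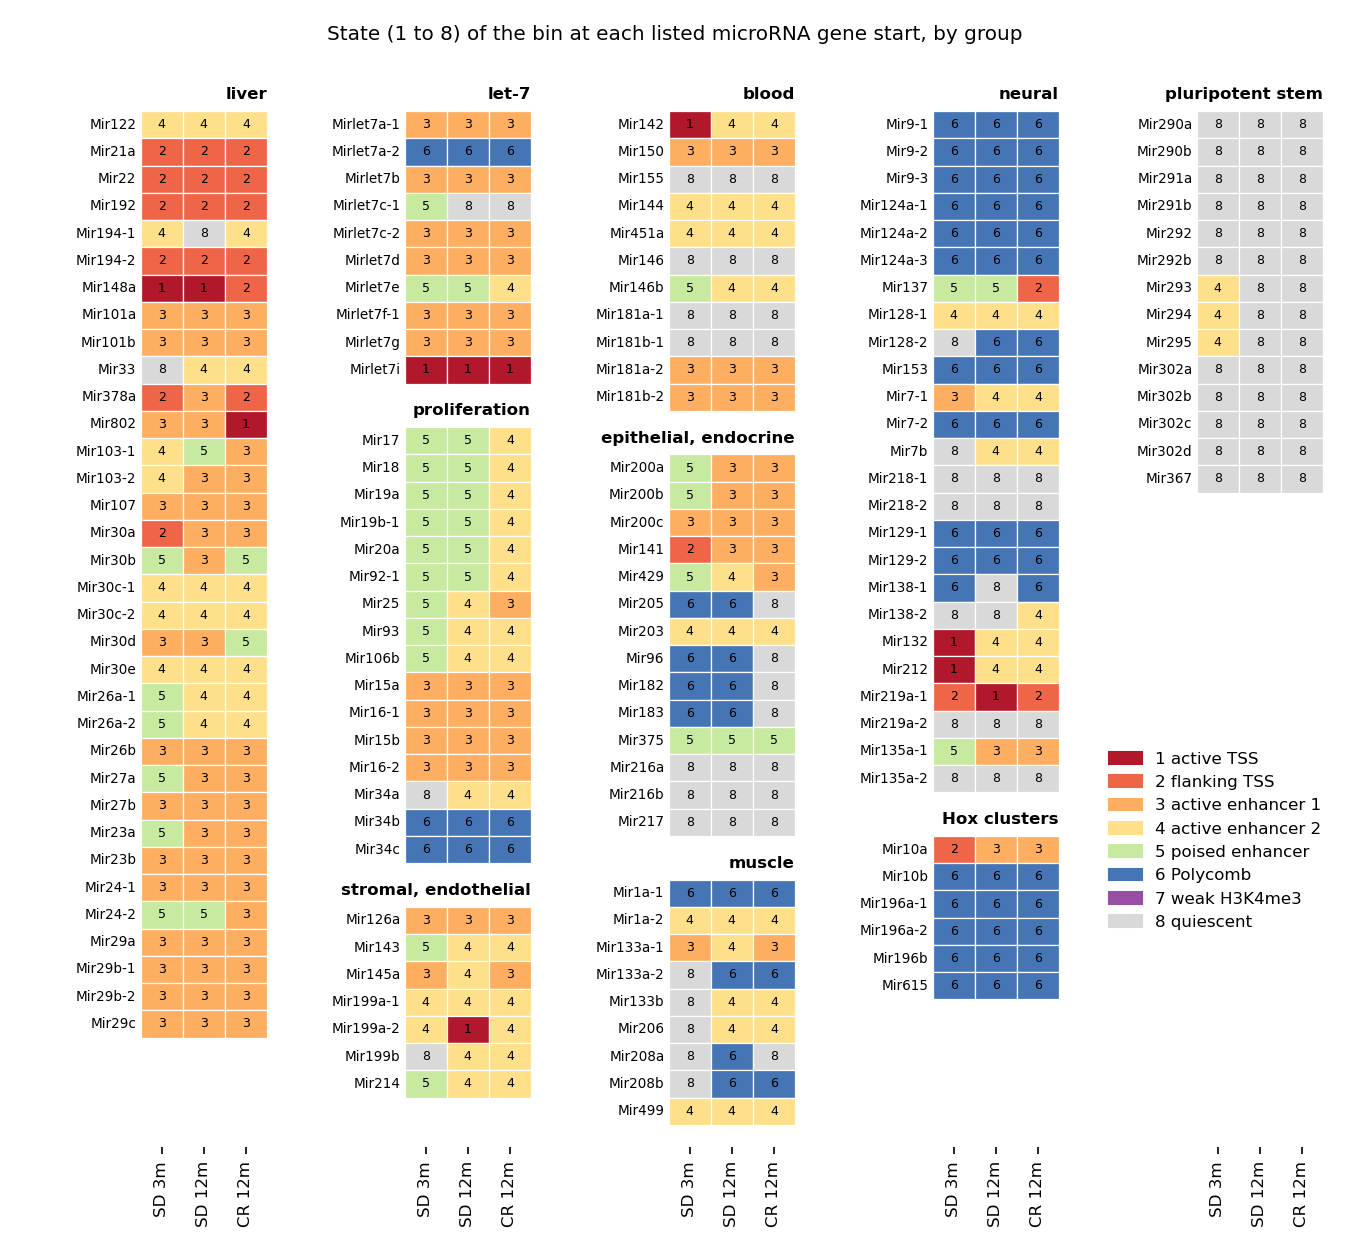
State of the bin at the start of each listed microRNA gene (rows, grouped by list) in SD 3m, SD 12m and CR 12m (columns), given by number and colour. The liver list shows 1 quiescent cell each for Mir33 and Mir194-1, the neural list 10 rows of state 6 throughout, and the pluripotent stem list is quiescent in all rows at 12 months.

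The let-7 genes, which restrain growth and RNA-binding proteins of the embryo, split by locus. Of the 10 autosomal genes on the list 9 were in regulatory states in SD 3m and 8 in both 12-month groups. Mirlet7i was in state 1 throughout, and Mirlet7a-1, Mirlet7f-1 and Mirlet7d on chromosome 13, Mirlet7g in Wdr82, and Mirlet7c-2 and Mirlet7b on chromosome 15 were in state 3 throughout. All 51 bins around these 7 genes were in regulatory states in every group. The remaining 3 lay in the clusters that pair a let-7 gene with relatives of Mir99 and Mir125, and there the groups differed.

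The cluster in introns of Mir100hg on chromosome 9 was partly poised in SD 3m and wholly in the Polycomb state at 12 months. Mir100 (chr9:41531425-41531504) was in state 5 in SD 3m and in state 6 in SD 12m and CR 12m, and its regulatory bins numbered 45, 0 and 0 of 51. Mir125b-1 (chr9:41581926-41582002) had 51 bins in poised state 5 in SD 3m and 51 in Polycomb state 6 in both 12-month groups. Mirlet7a-2, between these, was in state 6 throughout, with 19, 0 and 0 regulatory bins. In SD 12m the Polycomb stretch over the 3 hairpins ran unbroken for 121.4 kb, from 41480801 to 41602200, and in CR 12m for 93.0 kb.

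Part of the related cluster on chromosome 16 went to the quiescent state instead. Mir99a (chr16:77598936-77599000) and Mirlet7c-1 (chr16:77599657-77599750), both in no annotated gene of another kind, were in states 5, 8 and 8. Regulatory bins around Mir99a numbered 51, 18 and 3, and around Mirlet7c-1 51, 14 and 3. In SD 3m 6 bins in promoter state 1 lay just upstream, the nearest 3400 bp before Mir99a, and in the 12-month groups no bin of that window was in state 1. Mir125b-2, farther along the chromosome, was in regulatory states in all groups, in states 3, 5 and 5. The bin in state 1 nearest to Mir125b-2 lay 50800 bp upstream in SD 3m, 2000 bp in SD 12m and 2200 bp in CR 12m. The third cluster, in exons of Spaca6 on chromosome 17, was in regulatory states throughout, with Mir99b, Mirlet7e and Mir125a in states 5, 5 and 4 and all 51 bins in regulatory states in every group. Its state 1 bins around Mir99b numbered 17, 13 and 7. The mature strands of the 3 clusters share the seeds shown above. With the seed ACCCGUA, Mir100 was in the Polycomb, Mir99a in the quiescent and Mir99b in a regulatory state in both 12-month groups. With the seed CCCUGAG, Mir125b-1 was in the Polycomb state and Mir125b-2 and Mir125a were in regulatory states.

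**Figure D5:**
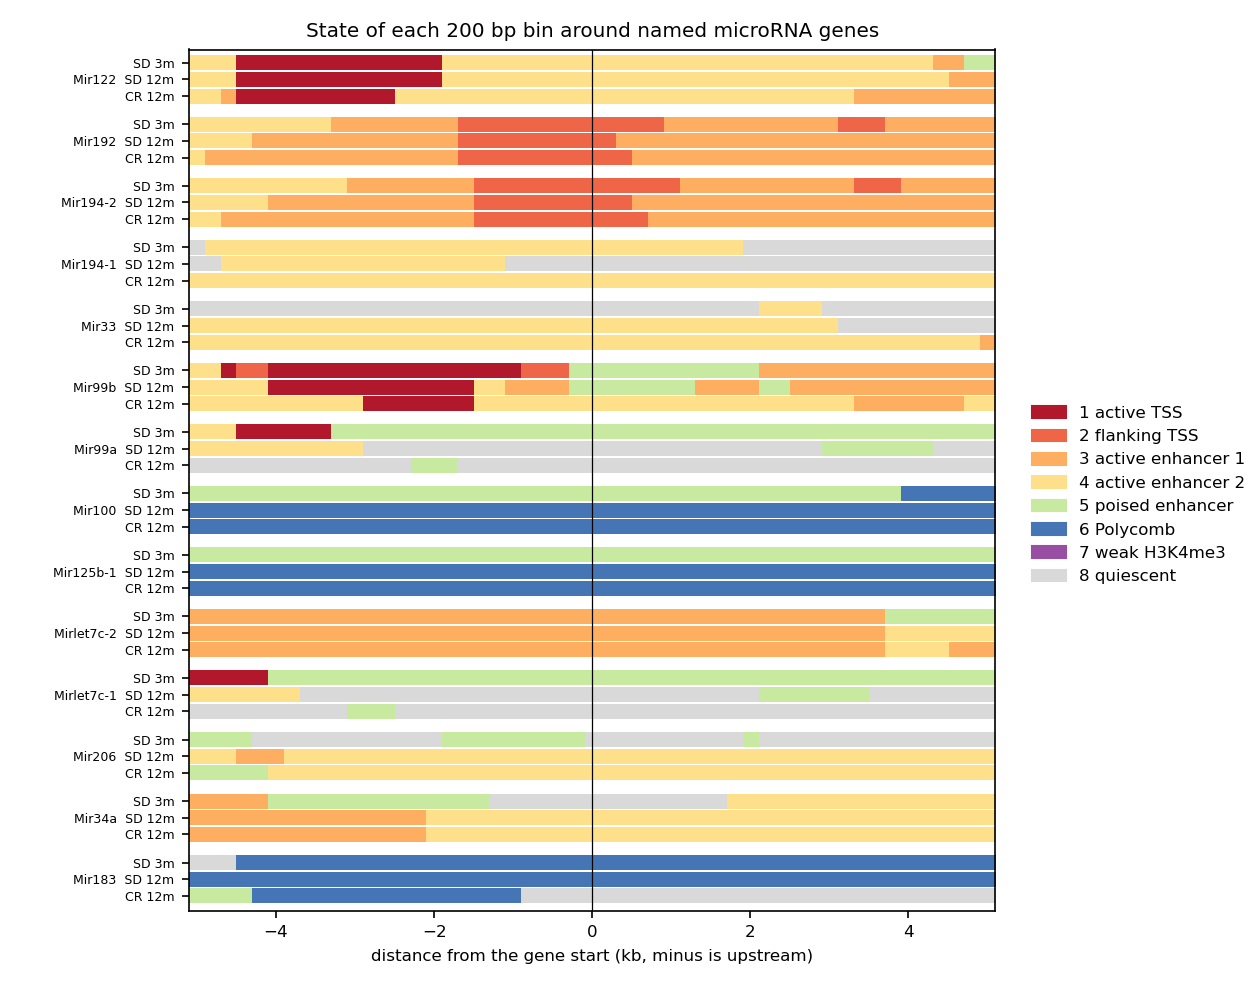
State of each of the 51 bins of 200 bp around named microRNA genes (horizontal axis, distance from the start in kb, upstream to the left), with 1 strip for each group. Mir122 and Mir192 keep their layout, Mir100 and Mir125b-1 are in state 6 over the whole window at 12 months, and Mir99a and Mirlet7c-1 have 18 and 14 regulatory bins in SD 12m and 3 each in CR 12m.

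Mature strands that were not held, and those of chromosome 18, could not be compared, so the counts here can miss sets. Identical mature strands made by different loci occurred in 38 sets of loci. In 10, 14 and 13 of these sets some loci were in regulatory states and others not, and in 9 sets this held in all 3 groups. Mir181a-1 and Mir181b-1 on chromosome 1 were in state 8 and their copies Mir181a-2 and Mir181b-2, in an intron of Nr6a1os on chromosome 2, in state 3 in every group. Mir365-1 was in state 8 and Mir365-2 in state 3 throughout. Mir7-1, in an intron of the ubiquitously expressed Hnrnpk, was in states 3, 4 and 4 and Mir7-2 in state 6. Mir128-1, in R3hdm1, was in state 4 and Mir128-2, in the neural gene Arpp21, in states 8, 6 and 6. Mir135a-1 was in states 5, 3 and 3 and Mir135a-2 in state 8, and Mir219a-1 was in states 2, 1 and 2 and Mir219a-2 in state 8. Mir138-1 was in states 6, 8 and 6 and Mir138-2, in Nup93, in states 8, 8 and 4. The marks do not give the output of either locus.

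Mir16-1 with Mir16-2 and Mir29b-1 with Mir29b-2 were in state 3 in all groups. Mir9-1, Mir9-2 and Mir9-3, and Mir129-1 with Mir129-2, were in state 6 in all groups. The set of Mir199a-1, Mir199a-2 and Mir199b, which share miR-199a-3p, was split in SD 3m alone, with its loci in states 4, 4 and 8 in SD 3m, 4, 1 and 4 in SD 12m and all in state 4 in CR 12m. Among the strands held, seeds shared by 5 or more members numbered 10. The let-7 seed GAGGUAG was the most frequent of these, with 11 genes of which 11, 10 and 9 were in regulatory states. Mirlet7a-2, in state 6 throughout, is not among the 11, because let-7a-2-3p was its only strand held. The seed AGCAGCA of the Mir15 and Mir16 family had 10 genes, 7 of them in regulatory states in each group. The seed AAGUGCU of the Mir291a, Mir294 and Mir302 families had 5, with 2 in regulatory states in SD 3m and 0 later. The seed GUCAGGC of the Mir344 family had 7, all in state 8 in the 3 groups.

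Many microRNAs of the nervous system were in the Polycomb state. Of 25 genes on the neural list 11, 11 and 12 were in state 6, and 10 of them in all 3 groups, beside 4.13% of all members. These were the 3 copies each of Mir9 and Mir124a, both copies of Mir129, Mir153 and Mir7-2. The windows of Mir9-1, Mir9-2, Mir9-3 and Mir124a-1 held 51 bins of state 6 in every group. The members of the list in regulatory states were Mir7-1, Mir128-1, Mir135a-1, Mir219a-1, Mir137 in states 5, 5 and 2, Mir132 and Mir212 in states 1, 4 and 4, and later Mir7b in states 8, 4 and 4 and Mir138-2 in states 8, 8 and 4. Among 6 microRNA genes of the Hox clusters 5 were in state 6 throughout, with 51 Polycomb bins in every group (Mir10b, Mir196a-1, Mir196a-2, Mir196b and Mir615). Mir10a, in an intron of Hoxb3, was the exception, in states 2, 3 and 3 with 51 regulatory bins.

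Muscle microRNAs were spread over 3 kinds of state. Mir206 (chr1:20679010-20679082) and Mir133b, in Lincmd1, were in states 8, 4 and 4, with 14 and 8 regulatory bins of 51 in SD 3m and 51 each in SD 12m and CR 12m. The regulatory domain around Mir206 spanned 35.4 kb in SD 12m and 23.0 kb in CR 12m. Mir1a-1 was in state 6 throughout and its neighbour Mir133a-2 in states 8, 6 and 6. Mir208b and Mir208a, in introns of the heart myosin genes Myh7 and Myh6, were in states 8, 6 and 6 and 8, 6 and 8. Mir1a-2 and Mir499 were in state 4 in all groups and Mir133a-1 in states 3, 4 and 3.

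Among 11 microRNAs of blood cells 7 were in regulatory states in every group (63.6%, beside 45.0% of all members). The red-cell pair Mir144 and Mir451a was in state 4 and lymphocyte Mir150 in state 3 throughout. Mir142, found in leukocytes, was in states 1, 4 and 4 and Mir146b in states 5, 4 and 4. Mir155 and Mir146, which are induced in inflammation, were in state 8 in all 3 groups, as were Mir181a-1 and Mir181b-1. Around Mir146 21 regulatory bins in SD 3m compared to 0 in both 12-month groups. All 7 stromal and endothelial microRNAs were in regulatory states at 12 months, beside 52.0% (SD 12m) and 54.2% (CR 12m) of all members. The start of the stromal marker Col1a1 was in Polycomb state 6 in CR 12m. Mir126a, in an intron of the endothelial gene Egfl7, was in state 3 throughout, Mir143 in states 5, 4 and 4, Mir145a in states 3, 4 and 3, Mir214 in states 5, 4 and 4, and Mir199b in states 8, 4 and 4.

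Of 14 epithelial and endocrine microRNAs 7 were in regulatory states in each group. The Mir200 family, which holds cells in the epithelial state, was in regulatory states throughout, with Mir200a and Mir200b in states 5, 3 and 3, Mir429 in states 5, 4 and 3, Mir141 in states 2, 3 and 3 and Mir200c in state 3. Mir375 was in state 5 and Mir203 in state 4. Sensory Mir182, Mir96 and Mir183, a cluster in Mirc35hg, and Mir205 were in Polycomb state 6 in SD 3m and SD 12m and in state 8 in CR 12m. Bins of state 6 around Mir183 numbered 48, 51 and 17, and around Mir205 51, 51 and 3. CR 12m had the fewest merged H3K27me3 libraries, and their part here was not tested.

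The 14 genes of pluripotent stem cells all had a quiescent start at 12 months, beside 37.8% (SD 12m) and 37.7% (CR 12m) of all members. All 14 belong to the Mir290 to Mir295 cluster or to the cluster of Mir302 and Mir367. Neighbours are not independent, so these counts do not stand for 14 separate loci. Of these 14, 11 were quiescent throughout (beside 29.9% of all members), while Mir293, Mir294 and Mir295 were in states 4, 8 and 8. These 3 calls in SD 3m rest on 4 regulatory bins of the window, and in CR 12m 20, 22 and 22 bins of these windows were in state 4 beside the quiescent start. Of 16 microRNAs tied to proliferation 13 were in regulatory states in SD 3m (beside 49.0% of all members) and 14 in each group at 12 months (beside 52.0% and 54.2%). Most of the 16 are neighbours in a few clusters, so they are not independent. The 6 genes of the Mir17 cluster were in states 5, 5 and 4, and Mir15a, Mir15b, Mir16-1 and Mir16-2 in state 3. Mir106b and Mir93, in an intron of the replication gene Mcm7, were in states 5, 4 and 4 and Mir25 in states 5, 4 and 3. The p53 targets of the Mir34 family split by locus. Mir34a (chr4:150068454-150068555) was in states 8, 4 and 4, with 36, 51 and 51 regulatory bins, while Mir34b and Mir34c held 51 Polycomb bins in every group.

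State 1 at the hairpin itself in all 3 groups was found for 39 members (3.58%, beside 13.2% of all genes). Their median distance to the start of a gene of another kind was 279 bp, compared to 10747 bp for all members. Within 2 kb of such a start lay 35 of them. Examples are Mir3091 in an exon of Rps21, Mir1956 in an intron of Eif4e and Mir320. The 4 farther away were Mirlet7i, Mir193a, Mir1893 and Mir5620. At least 1 bin of state 1 lay within the window of 219, 204 and 184 members. The median distance from a start to the nearest bin in state 1 was 28.0 kb, 33.7 kb and 36.6 kb. This distance was not taken for other genes or for all bins, so it is not shown to be particular to microRNA genes. The merged H3K4me3 libraries numbered 7, 8 and 5, and their part was not tested.

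The members with the most bins in a given move show where large parts of a window changed. From state 8 to 7, Mir195b had 51 bins in SD 12m and 31 in CR 12m, and Mir6370, far from other genes, had 51 in both. From state 8 to 6, Mir486 and Mir3107, on opposite strands of the same place in the red-cell gene Ank1, had 51 bins in both groups, whereas Mir296 and Mir298 near the imprinted Gnas had 51 bins in state 6 in SD 12m and 17 and 15 in CR 12m. From state 6 to 8, Mir708 in Tenm4 had 36 bins in SD 12m and 51 in CR 12m. From states 1 to 5 to states 6 to 8, Mir719 in an exon of Nupl1 had 51 bins in both groups, as Mir125b-1 did. In the opposite direction, Mir1251 in an intron of the lncRNA Rmst had 51 in both.

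Genes of the microRNA pathway were mostly in regulatory states, with 20, 20 and 19 of 23 starts in these (87.0%, 87.0% and 82.6%). These shares were above those of all protein-coding starts given earlier. The nucleases Drosha and Dicer1, the exporter Xpo5, the slicing Argonaute Ago2 and the uridylyl transferases Tut4 and Tut7 were in state 1 in all 3 groups. Dgcr8, the partner of Drosha, was in states 1, 4 and 4, Ago1 in states 1, 4 and 1 and Ago4 in states 1, 1 and 4. Lin28a and Lin28b, which block the processing of let-7 in the embryo, were in Polycomb state 6 in every group, and Adar was in states 4, 4 and 6.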

How the data were processed

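ChIP-seq libraries of 4 histone marks in mouse liver were made by the study. The authors aligned reads to mm10 with BWA 0.6.2-r126, used SAMtools 0.1.18, merged the libraries of each group and mark and assigned ChromHMM states. The deposited value, the unit used here, is a state label from 1 to 8 for each bin of 200 bp, on chromosomes 1 to 19 and X. Merging and binarization thus precede the labels, and read depth is unknown.

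In Python 3.11.15 with numpy 2.4.6, pandas 2.3.3 and matplotlib 3.10.9, the state was read at the start of each RefSeq gene of GRCm38.p6, whose chromosome lengths fit the bins, and over 51 bins. The main state was the most frequent one, ties going to that of the start. The functions were tested on simulated segmentations. Members and lists were chosen with earlier results of these data known. Genes named were Mir122, the liver and let-7 lists, members of the other lists in states 1 to 5 (all of lists under 10), the 5 members with the most bins in each of 5 moves, those in state 1 throughout, and loci of identical products in different states. Those named in state 6 or 8, and the examples within hosts, were named after their values were seen where this rule does not give them. Alternatives were the middle of the gene, windows of 2 and 10 kb, 1 member per locus, leaving out 2 arrays or members near other starts, 5 merged classes, other symbols and, chosen after seeing the data, state 5 counted apart. SD 6m, members on chromosome X and sequences of chromosome 18 were not analysed here.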

Additional observations from a re-analysis of the deposited data

How the results depend on the processing

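No paired analysis was possible because each group has 1 segmentation of merged libraries, and for the same reason no replicate could be left out. Using the middle of the gene, windows of 2 or 10 kb to either side, or the 46 genes with other symbols added moved none of the shares by more than their intervals. The order of the groups in starts in regulatory states (1 to 5) was kept in the 3 alternatives below that leave out members. With 1 member per locus (883 loci), regulatory starts were 55.2%, 58.9% and 61.0% (SD 3m first, CR 12m last), starts in state 8 37.6%, 30.0% and 29.9%, regulatory main states 54.5%, 57.9% and 60.4% and main state 8 37.5%, 30.8% and 30.5%, and 34.4% and 37.7% of starts changed. Without the Sfmbt2 and Dlk1 to Dio3 arrays (958 genes), regulatory starts were 55.6%, 58.9% and 61.2%, starts in state 8 36.7%, 29.5% and 29.6%, regulatory main states 54.2%, 58.0% and 60.5%, main state 8 37.5%, 30.2% and 30.2%, and 34.4% and 38.2% of starts changed. Without members within 2 kb of another start (899 genes), regulatory starts were 44.8%, 47.9% and 50.6%, starts in state 8 48.4%, 41.5% and 40.8%, regulatory main states 47.4% in SD 12m and 50.1% in CR 12m, and main state 8 41.9% and 41.7%. When states of like kind were pooled to 5 classes, 19.3% (SD 12m) and 20.8% (CR 12m) of starts changed. With poised state 5 counted apart, an alternative chosen after seeing the data, starts in states 1 to 4 were 36.4%, 47.6% and 51.8% and main states 38.1%, 48.2% and 51.5%. Read depth behind a state is unknown, so a mark below the threshold cannot be told from an absent one.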
